A study of Homo sapiens with 4 samples.

Results

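The 10 genes described here include kinases, a kinase activator (TPX2), phosphatases and ubiquitin-ligase factors that carry a cell through entry into mitosis and out of metaphase. With them are 2 transcription factors, FOXM1 and MYBL2, that switch on genes of this phase. The 10 genes were chosen by name, with earlier results of these data known. Their Ensembl identifiers were matched to the symbols FOXM1, MYBL2, PLK1, AURKA, TPX2, NEK2, CDC20, UBE2C, CDC25B and CDC25C. All 10 were found among the 24039 genes that every deposited table lists, and all 10 were at 1 CPM or more in each of the 4 libraries. CPM is a gene's count of reads scaled so that every library has the same total.

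UM-UC-3 cells, an established line from a human bladder tumour, were transfected with siRNA at 75 nM, and total RNA taken at 48 h gave 1 library per condition. The conditions were a control siRNA, siRNAs against hnRNPK (si-hnRNPK), siRNAs labelled as directed against a long non-coding RNA (the si-lncRNA-LBCS-labelled library) and siRNAs against PTBP1 (si-PTBP1), and 2 siRNA sequences are given for each target. hnRNPK and PTBP1 are RNA-binding proteins, and siRNAs lower their messenger RNA without deleting the gene.

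In a dividing cell, CDK1 with cyclin B starts mitosis once phosphatases of the CDC25 family have removed its inhibitory phosphates. PLK1, Aurora A (the product of AURKA) and NEK2 act on centrosomes and the spindle, and TPX2 binds and activates Aurora A there. CDC20 and UBE2C then work with the anaphase-promoting complex (APC/C), the ubiquitin ligase that marks cyclin B for destruction. Most of these genes are transcribed late in the cell cycle by FOXM1 and by B-MYB (the product of MYBL2), both of which work with the MuvB complex, and MuvB binds a short promoter element called the CHR (cell cycle genes homology region).

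The CHR and the CCAAT box are the promoter elements by which genes of this group are known, so their presence in the 10 genes was read from reference sequence. RefSeq promoter windows on GRCh38.p14 were at hand for 6 of the 10 genes, with 12 windows in all, and the 250 bases before each annotated start were searched on both strands. FOXM1, AURKA, TPX2 and UBE2C had no window. A CHR, spelled TTTGAA or TTCGAA, occurred before a start of 4 of the 6 genes, namely PLK1, CDC20, CDC25B and CDC25C. Those were 4 of 12 windows, beside 14.3% of 35116 windows of all genes. CDC20 held 2, on opposite strands. The 30 bases around the CHR nearest the start of each gene are given here so that the elements can be compared, each written 5′ to 3′ on the strand of the gene with the CHR in capitals.
PLK1, chr16:23678848-23678877, plus strand: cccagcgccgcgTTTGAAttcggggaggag
CDC20, chr1:43358904-43358933, plus strand: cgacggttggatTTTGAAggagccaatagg
CDC25B, chr20:3796260-3796289, plus strand: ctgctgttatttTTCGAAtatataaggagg
CDC25C, chr5:138331817-138331846, minus strand: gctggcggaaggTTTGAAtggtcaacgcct

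The CHR nearest the start began 29 bases before the annotated start of PLK1, 30 before a start of CDC25C, 38 before a start of CDC25B and 65 before that of CDC20, and the other CHR of CDC20 lay 178 bases before its start. In the windows of PLK1, CDC25C and CDC25B, annotated exons of coding transcripts of the same gene began 67, 73 and at least 250 bases before that start. The CHRs of these genes therefore do not lie upstream of every annotated start. Of the 4 elements nearest a start, that of CDC25B had the TTCGAA form and those of the other 3 genes the TTTGAA form. CCAAT boxes stood in the windows of 5 of the 6 genes, or in 7 of 12 windows, beside 32% of all windows. NEK2 was the one that held CCAAT boxes and neither CHR spelling. The CCAAT box in the CDC25C window with a CHR also lies in an overlapping window of that gene. A window with both a CHR and a CCAAT box was found for PLK1, CDC20, CDC25B and CDC25C. These were 4 of 12 windows, beside 5.05% of all windows. CDC20 and NEK2 are shown over 160 bases. These stretches contrast a promoter with both elements and one in which the spellings searched found CCAAT boxes alone. Capitals mark every CHR and CCAAT box on either strand.
CDC20, chr1:43358795-43358954, plus strand: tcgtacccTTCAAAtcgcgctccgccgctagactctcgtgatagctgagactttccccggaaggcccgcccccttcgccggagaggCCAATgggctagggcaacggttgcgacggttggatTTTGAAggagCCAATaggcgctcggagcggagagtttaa
NEK2, chr1:211675631-211675790, minus strand: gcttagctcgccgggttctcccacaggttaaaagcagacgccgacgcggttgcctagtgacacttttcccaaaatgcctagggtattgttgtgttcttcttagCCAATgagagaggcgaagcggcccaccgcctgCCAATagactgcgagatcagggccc

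The MYBL2 window held none of the motifs searched. These were the CHR, the CCAAT box, 4 spellings of the E2F site (TTTCCCGC, TTTGCCGC, TTTCGCGC and TTTGGCGC, in 2.79% of all windows), the forkhead motif TAAACA (11% of all windows) and the MYB motif TAACNG (17.6% of all windows). No member window held an E2F or forkhead spelling, and a MYB motif occurred only before a start of CDC25B, 47 bases from it. A match describes letters of the reference and not a bound site.

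**Figure D1:**
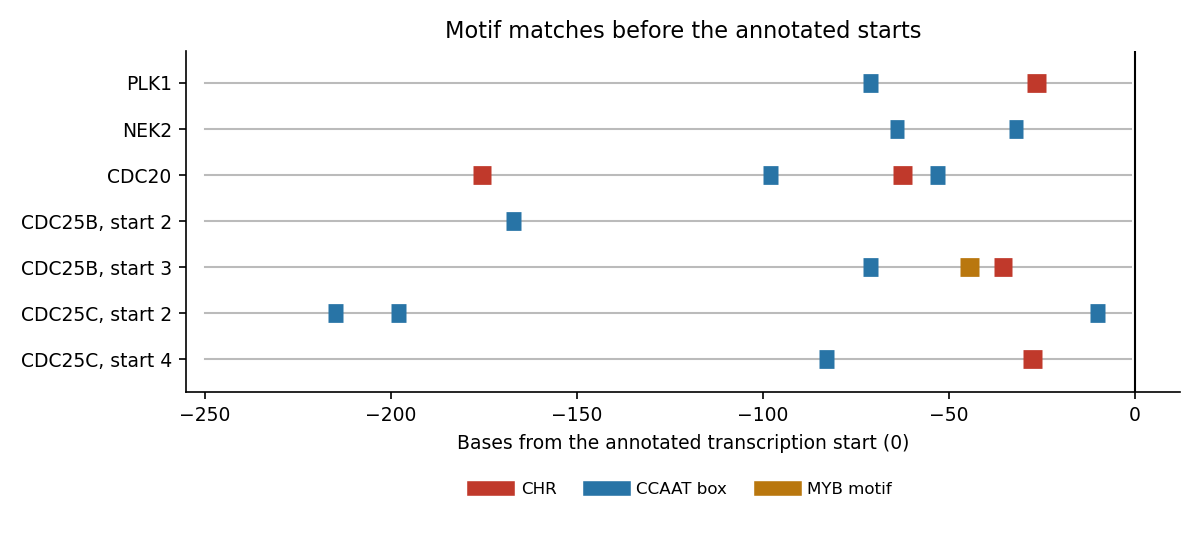
Matches to the CHR (red), the CCAAT box (blue) and the MYB motif (orange) in the 250 bases before annotated starts of PLK1, NEK2, CDC20, CDC25B and CDC25C, with the distance from the start in bases on the x axis and 1 line per window with a CHR or CCAAT box. The CHR nearest the start lay 29 to 65 bases before it in PLK1, CDC20, CDC25B and CDC25C, and CCAAT boxes lay on either side of that of CDC20.

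The siRNA sequences were compared with the same genes, since an siRNA can also lower messengers whose 3′ UTR pairs with its seed, bases 2 to 8 of the guide strand. The strands of the 2 hnRNPK siRNAs that match the messenger are printed with the bases opposite the seed in capitals.
si-hnRNPK siRNA 1: ggguuguagagUGCAUAAatt
si-hnRNPK siRNA 2: gccuccaucuaGAAGAGAutt

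Neither of the 7-base stretches occurred in the longest annotated 3′ UTR of any of the 10 genes, beside 10.98% (siRNA 1) and 19.7% (siRNA 2) of 11922 genes at 1 CPM or more. The 4 siRNAs of the other knockdown libraries also had no seed match among the 10 genes. Their 7-base stretches occurred in 9.378% to 18.2% of the 11922 genes, depending on the siRNA. The stretch of the control siRNA occurred in MYBL2, and in 3.20% of the 11922 genes. No siRNA matched any of the 10 genes over its 19 paired bases.

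The reads on listed genes ranged from 54301152 to 70232674 per library, and each of the 10 genes had between 1012 reads (MYBL2 in si-hnRNPK) and 22779 reads (CDC20 in the si-lncRNA-LBCS-labelled library). HNRNPK, the gene targeted by the hnRNPK siRNAs, stood at 24.0% of its control level in si-hnRNPK, and PTBP1 at 32.0% in si-PTBP1. The gene that both siRNAs of the si-lncRNA-LBCS-labelled library match was at 81.8% of control there, with a 95% interval of 61.9% to 108%. That library is therefore named by its label throughout. The sample annotation also gives a qPCR level relative to control for each knockdown library. Each of these qPCR levels was lower than the share given here from the reads. Of 15 epithelial and urothelial markers 13 were listed and 4 reached 1 CPM in the control library (KRT8, KRT18, KRT7 and PPARG), EPCAM had no reads, and the 4 mesenchymal-type markers VIM, CDH2, FN1 and ZEB1 were all present. Their summed levels ranged over the 4 libraries from 156 to 219 CPM and from 1666 to 2572 CPM. Of 7 white blood cell and 3 endothelial markers, 2 of each were listed and 0 reached 1 CPM in any library. Of 4 fibroblast markers 2 were listed, and 1, COL1A1, reached 1 CPM in si-PTBP1.

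All 10 genes were at their lowest in the si-hnRNPK library. A change is the log2(CPM + 1) of one library minus that of another, a scale on which 1 is a 2-fold difference, and a gene was counted as lower or higher when it passed 1. The intervals in parentheses are exact 95% Clopper-Pearson ones from a gene's reads in both libraries. They cover counting error only, and with 1 library per condition no difference could be set against the spread between cultures, so no p-value is given. In bulk RNA, fewer cells in G2 phase or mitosis and less of these messengers in each cell cannot be told apart.

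**Figure D2:**
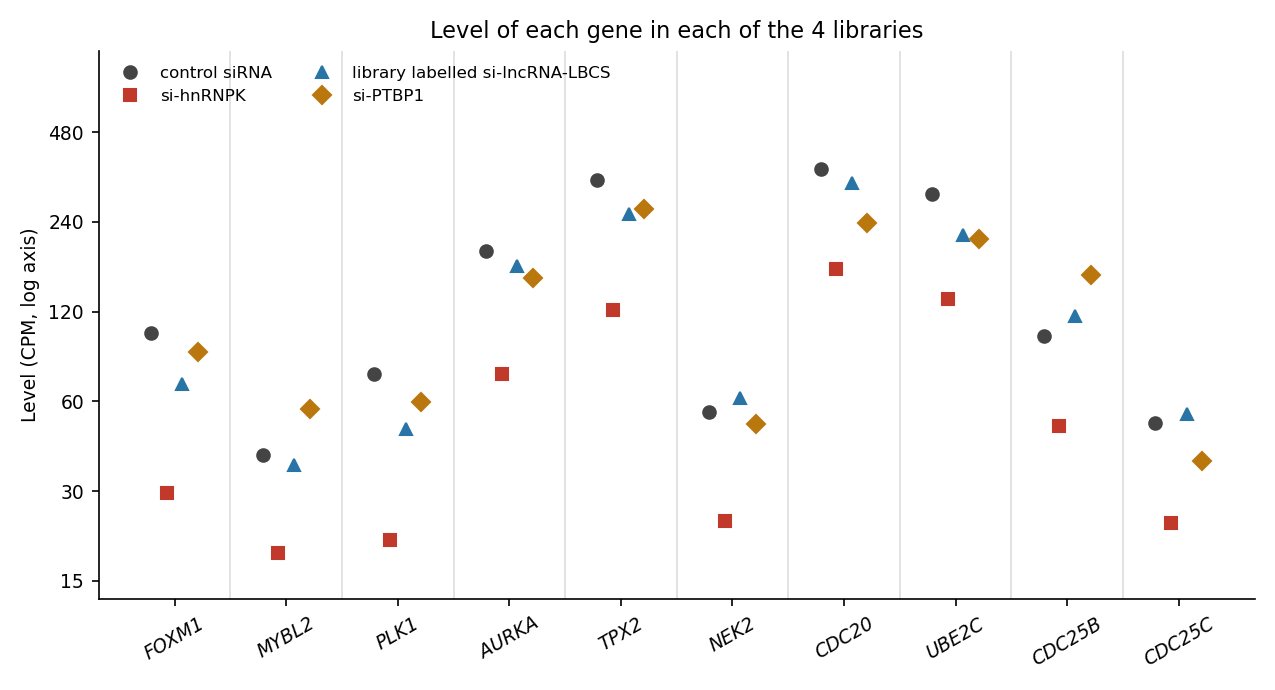
Level of each of the 10 genes (CPM, logarithmic axis) in the control siRNA, si-hnRNPK, si-lncRNA-LBCS-labelled and si-PTBP1 libraries, 1 point per library. The si-hnRNPK point is the lowest of the 4 for each gene, from 18.6 CPM for MYBL2 to 167 CPM for CDC20.

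In si-hnRNPK against control siRNA, 9 of the 10 genes were lower by 1 or more, beside 3.93% of the 13672 genes that reached 1 CPM in either library. None was higher by 1 or more, beside 3.55% of all genes. All 10 were lower by some amount, beside 58.4% of all genes. The median change of the 10 genes was -1.17, and that of all genes tested was -0.11. Against that median, rather than against 0, 7 of the 10 passed 1, and MYBL2, CDC25B and CDC25C did not. The 10 genes were chosen with earlier results of these data known, so these contrasts with all genes are descriptions and not tests.

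FOXM1 (ENSG00000111206), the forkhead factor that drives late cell cycle genes, lies on chromosome 12 (2857681 to 2877155, minus strand). These and the following positions are from GENCODE release 29 on GRCh38. FOXM1 was at 102.1 CPM in control, 29.5 CPM in si-hnRNPK, 68.6 CPM in the si-lncRNA-LBCS-labelled library and 88.2 CPM in si-PTBP1. Its level was thus highest in control and lowest in si-hnRNPK, with the other two libraries between. Its change in si-hnRNPK was -1.76 (-1.84 to -1.68), or 28.9% of control, and 0.154% of all genes tested had a lower change. The change was -0.57 (-0.62 to -0.51) in the si-lncRNA-LBCS-labelled library and -0.21 (-0.26 to -0.16) in si-PTBP1.

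MYBL2 (ENSG00000101057), which encodes B-MYB, lies on chromosome 20 (43667019 to 43716496, plus strand). It was at 39.8 CPM in control, 18.6 CPM in si-hnRNPK, 36.6 CPM in the si-lncRNA-LBCS-labelled library and 56.6 CPM in si-PTBP1, where it was highest. In si-hnRNPK the change was -1.05 (-1.16 to -0.95), an interval that spans the threshold. In si-PTBP1 MYBL2 was higher, by 0.50 (0.42 to 0.57), and in the si-lncRNA-LBCS-labelled library the change was -0.12 (-0.20 to -0.04).

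The 2 transcription factors therefore differed in their change against control in each knockdown library. The change of FOXM1 minus that of MYBL2 was -0.70 (-0.83 to -0.58) in si-hnRNPK, -0.45 (-0.54 to -0.36) in the si-lncRNA-LBCS-labelled library and -0.71 (-0.80 to -0.62) in si-PTBP1. All 3 differences were beyond counting error, with FOXM1 the lower in each, and all 3 were taken against the same control library. With control left out, si-hnRNPK against si-PTBP1 gave -1.55 for both genes. Against the si-lncRNA-LBCS-labelled library, si-hnRNPK gave -1.19 for FOXM1 and -0.94 for MYBL2, and si-PTBP1 gave 0.36 and 0.61.

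PLK1 (ENSG00000166851), the Polo-like kinase of mitotic entry and spindle formation, lies on chromosome 16 (23677656 to 23690367, plus strand). Its levels were 74.0 CPM in control, 20.6 CPM in si-hnRNPK, 48.4 CPM in the si-lncRNA-LBCS-labelled library and 59.5 CPM in si-PTBP1. PLK1 had the lowest change of the 10 genes in si-hnRNPK, -1.80 (-1.89 to -1.71), with 0.139% of all genes lower. It differed from FOXM1 there by less than counting error, at -0.04 (-0.16 to 0.08). PLK1 was also the lowest of the 10 in the si-lncRNA-LBCS-labelled library, at -0.60 (-0.67 to -0.54), again with FOXM1 next to it.

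AURKA (ENSG00000087586), which encodes the centrosome and spindle kinase Aurora A, lies on chromosome 20 (56369389 to 56392337, minus strand). TPX2 (ENSG00000088325), its activator on spindle microtubules, lies on the same chromosome (31739271 to 31801805, plus strand). AURKA was at 191.4 CPM in control, 74.4 CPM in si-hnRNPK, 171 CPM in the si-lncRNA-LBCS-labelled library and 156 CPM in si-PTBP1. TPX2 was at 331 CPM, 122 CPM, 255 CPM and 266 CPM in the same order of libraries. Both were highest in control and lowest in si-hnRNPK.

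The kinase and its activator changed by similar amounts in si-hnRNPK, -1.35 (-1.40 to -1.30) for AURKA and -1.44 (-1.48 to -1.40) for TPX2. The difference between them was 0.08 (0.02 to 0.15), small but beyond counting error. In si-PTBP1 AURKA changed by -0.29 (-0.33 to -0.25) and TPX2 by -0.32 (-0.35 to -0.29), which were not apart beyond counting error (difference 0.02, -0.03 to 0.07). They were further apart in the si-lncRNA-LBCS-labelled library, at -0.16 (-0.20 to -0.13) and -0.37 (-0.40 to -0.35).

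NEK2 (ENSG00000117650), the kinase that loosens the link between centrosomes, lies on chromosome 1 (211658657 to 211675630, minus strand). It was at 55.1 CPM in control, 23.9 CPM in si-hnRNPK, 61.7 CPM in the si-lncRNA-LBCS-labelled library and 50.3 CPM in si-PTBP1. Its change in si-hnRNPK was -1.17 (-1.26 to -1.08). Among the kinases, the change of PLK1 was lower than that of NEK2 by 0.63 (difference -0.63, -0.75 to -0.50) and lower than that of AURKA by 0.45 (difference -0.45, -0.55 to -0.34). NEK2 was higher than in control in the si-lncRNA-LBCS-labelled library, by 0.16 (0.10 to 0.23), and lower in si-PTBP1, at -0.13 (-0.20 to -0.06).

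CDC20 (ENSG00000117399), the activator of APC/C in metaphase, lies on chromosome 1 (43358955 to 43363203, plus strand). UBE2C (ENSG00000175063), the ubiquitin-conjugating enzyme that starts chains on APC/C targets, lies on chromosome 20 (45812576 to 45816957, plus strand). CDC20 was at 362 CPM in control, 167 CPM in si-hnRNPK, 324 CPM in the si-lncRNA-LBCS-labelled library and 239 CPM in si-PTBP1. UBE2C was at 299 CPM, 133 CPM, 216 CPM and 211 CPM in the same order. Both followed the same order of libraries, control highest and si-hnRNPK lowest.

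In si-hnRNPK CDC20 changed by -1.11 (-1.15 to -1.08) and UBE2C by -1.17 (-1.20 to -1.13). These were the 2 lowest of the 10 genes in si-PTBP1, with CDC20 at -0.60 (-0.63 to -0.57) and UBE2C at -0.50 (-0.53 to -0.47). Of all genes tested in si-PTBP1, 2.89% had a lower change than CDC20. The si-lncRNA-LBCS-labelled library gave -0.46 (-0.50 to -0.43) for UBE2C and -0.16 (-0.19 to -0.13) for CDC20, a difference of 0.30 (0.26 to 0.35). UBE2C was the only one of the 10 genes whose levels in si-PTBP1 and in the si-lncRNA-LBCS-labelled library did not differ beyond counting error, at -0.03 (-0.07 to 0.00).

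CDC25B (ENSG00000101224) and CDC25C (ENSG00000158402), phosphatases that activate CDK1, lie on chromosome 20 (3786772 to 3806121, plus strand) and chromosome 5 (138285265 to 138338355, minus strand). CDC25B was at 99.2 CPM in control, 49.5 CPM in si-hnRNPK, 116 CPM in the si-lncRNA-LBCS-labelled library and 159 CPM in si-PTBP1. CDC25C was at 51.0 CPM, 23.4 CPM, 54.6 CPM and 37.8 CPM in the same order. CDC25B was thus highest in si-PTBP1, a library in which CDC25C was below control.

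CDC25B was the member that missed the threshold in si-hnRNPK, with a change of -0.99 (-1.05 to -0.92) and 49.9% of its control level, and with a pseudocount of 0.1 in place of 1 it passed at -1.001. CDC25C changed by -1.09 (-1.18 to -0.999). The 2 phosphatases were not apart beyond counting error in si-hnRNPK, with a difference of 0.10 (-0.01 to 0.21). In si-PTBP1 their changes had opposite signs, 0.67 (0.63 to 0.72) for CDC25B and -0.42 (-0.50 to -0.34) for CDC25C, and the difference of 1.10 (1.00 to 1.19) was the largest of the 7 pairs by role compared in that library. In the si-lncRNA-LBCS-labelled library CDC25B changed by 0.22 (0.17 to 0.27) and CDC25C by 0.10 (0.03 to 0.16).

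**Figure D3:**
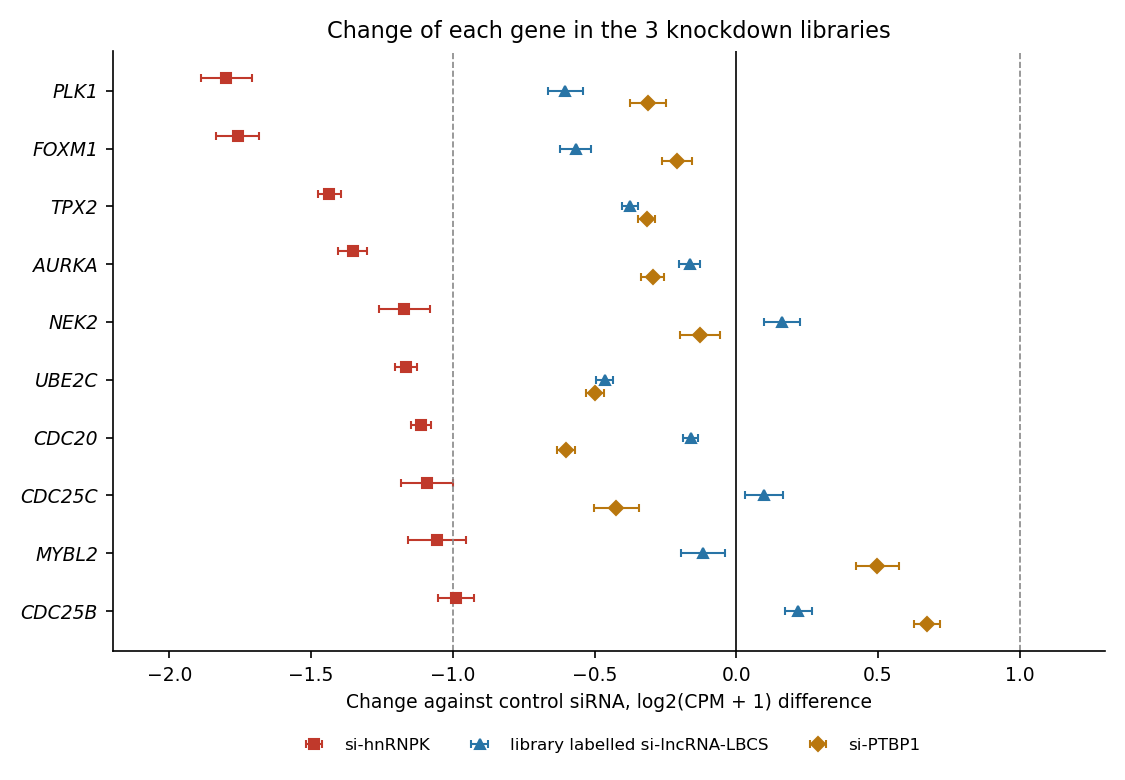
Change of each of the 10 genes against control siRNA on the log2(CPM + 1) scale (x axis) in the si-hnRNPK, si-lncRNA-LBCS-labelled and si-PTBP1 libraries, with 95% counting intervals as bars and the thresholds of 1 dashed. The si-hnRNPK points lie from -1.80 (PLK1) to -0.99 (CDC25B), and those of the other two libraries lie between -0.60 and 0.67.

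No member passed the threshold in either of the other knockdown libraries. In the si-lncRNA-LBCS-labelled library, 0 of 10 were lower by 1 or more, beside 1.01% of 13492 genes, and 0 were higher by 1 or more, beside 0.378%. There, 7 of the 10 were lower by any amount, beside 51.8% of all genes, and the median was -0.16 beside -0.01 for all genes. In si-PTBP1, 0 of 10 were lower by 1 or more, beside 0.613% of 13855 genes, and 0 were higher, beside 2.92%. In that library 8 of the 10 were lower by any amount, beside 36.5% of all genes, with a median of -0.30 beside 0.12 for all genes. MYBL2 and CDC25B were the 2 exceptions. All 3 comparisons use the same control library. When the geometric mean of the other 3 libraries, which includes si-hnRNPK, took the place of control as the reference, the median was above 0 in both, at 0.27 in the si-lncRNA-LBCS-labelled library and 0.25 in si-PTBP1.

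**Figure D4:**
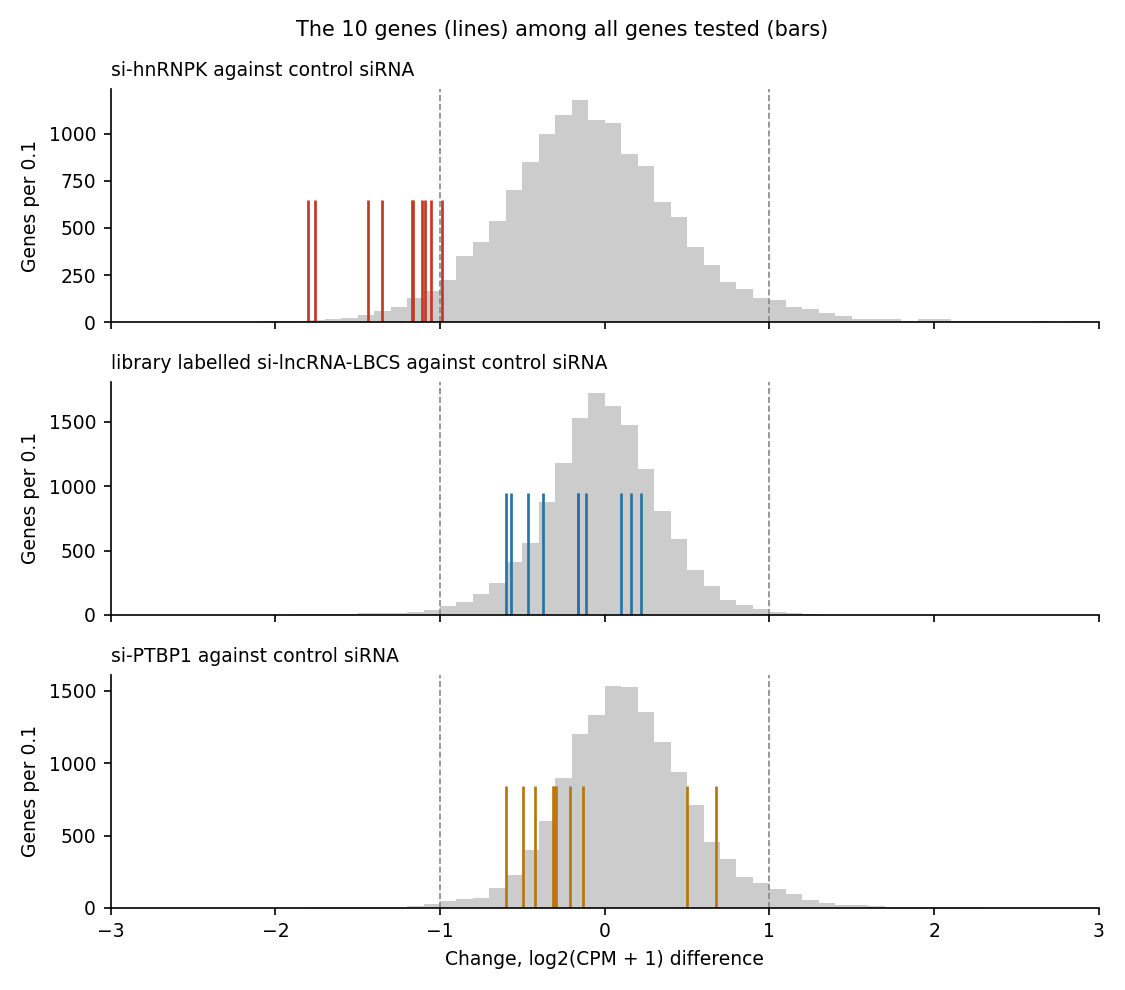
Number of genes per 0.1 of change on the log2(CPM + 1) scale (bars, all genes tested) in each knockdown library against control siRNA, with the 10 genes as coloured lines and the thresholds of 1 dashed. In si-hnRNPK the lines lie in the lower tail, with a median of -1.17 beside -0.11 for all genes, and in the other two panels they lie between -0.60 and 0.67.

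A direct comparison of knockdown libraries leaves the control library out. Against si-PTBP1, all 10 genes were lower in si-hnRNPK and 7 were lower by 1 or more, beside 6.05% of 13895 genes. CDC25B differed most, at -1.66 (-1.72 to -1.60), and MYBL2 and FOXM1 followed at -1.55 each. CDC20 differed least, at -0.51 (-0.55 to -0.47), with UBE2C and CDC25C at -0.67 each. The median of all genes in this comparison was -0.24. With median-of-ratios scaling, which removes such a shift, 4 of the 10 passed the threshold, since AURKA, TPX2 and NEK2 did not. The share of all genes past the threshold was not counted under this scaling, here or in later paragraphs.

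Against the si-lncRNA-LBCS-labelled library, 7 of the 10 were lower by 1 or more in si-hnRNPK, beside 2.51% of 13480 genes. NEK2 differed most, at -1.33 (-1.42 to -1.25). MYBL2 at -0.94, CDC20 at -0.95 and UBE2C at -0.70 did not pass. With median-of-ratios scaling TPX2 (-0.96, from -1.06) did not pass either, which left 6. CDC25B, which missed the threshold against control, passed it against both other knockdown libraries, and these comparisons share the si-hnRNPK library.

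Levels of different genes were compared per kilobase of the principal coding transcript. UBE2C was the highest in control, at 351 CPM per kilobase, followed by CDC20 at 204 CPM per kilobase, TPX2 at 94.6 and AURKA at 85.2 on the same scale. MYBL2 was the lowest, at 15.1 CPM per kilobase, and the other 5 genes lay between 23.9 (CDC25C) and 33.2 (PLK1). UBE2C exceeded 98.8% of 11435 coding genes at 1 CPM or more in control, and MYBL2 exceeded 66.4% of them.

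UBE2C and CDC20 kept the first and second ranks in each library, and AURKA and TPX2 held the next ranks. PLK1 and FOXM1 held ranks 5 and 6 in control and ranks 8 and 9 in si-hnRNPK, where PLK1 was at 9.24 CPM per kilobase and FOXM1 at 8.48. They held ranks 8 and 9 also in the si-lncRNA-LBCS-labelled library, and ranks 6 and 7 in si-PTBP1. Neighbours in these orders differed beyond counting error except NEK2 and CDC25C in si-hnRNPK, whose ratio was 1.02 (0.94 to 1.10). The ranks after UBE2C and CDC20 depended on the length used, and over the union of annotated exons PLK1 ranked 8 in control and 10 in si-hnRNPK.

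Of the 10 genes, 5 lie on chromosome 20 (MYBL2, AURKA, TPX2, UBE2C and CDC25B), a chromosome that held 2.79% of the genes tested in si-hnRNPK. The median change of its 381 tested genes there was -0.12, beside -0.11 for all genes.

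Other genes share sequence with some members, and strand-specific counting is not stated. FOXM1 overlaps ITFG2 on the opposite strand over up to 651 bases of an exon. ITFG2 had 662 reads in control and 431 in si-hnRNPK, beside 6267 and 1600 for FOXM1. CDC25C overlaps FAM53C on the opposite strand over up to 293 bases, and FAM53C had 5148 reads in control and 7262 in si-hnRNPK, beside 3127 and 1271 for CDC25C, so these 2 genes changed in opposite directions. PLK1 overlaps AC008870.3 and ERN2, also on the opposite strand, which had at most 68 and 23 reads in any library. Processed copies of AURKA, CDC20 and UBE2C that the tables list had at most 42 reads.

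The partners and relatives of the 10 genes were followed in 7 lists of 104 genes, of which 102 could be compared in si-hnRNPK. The lists too were drawn up with earlier results of these data known, so their shares are descriptions only. Among the 102 genes 24 were lower by 1 or more and 3 were higher, or 23.5% and 2.94%, beside 3.93% and 3.55% of all genes. With median-of-ratios scaling 15 were lower and 3 higher, but the shares of all genes under that scaling were not counted. In the si-lncRNA-LBCS-labelled library 1 of 101 was lower (0.990%, beside 1.01% of all genes) and 0 were higher (beside 0.378%). In si-PTBP1 0 of 102 were lower (beside 0.613%) and 1 was higher (0.980%, beside 2.92%). The share higher in si-hnRNPK and both shares in each of the other libraries were thus near or below those of all genes.

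The list named as APC/C substrates and other G2/M genes bound by FOXM1 and MuvB had the median nearest to that of the members. Binding to these genes was not tested. In si-hnRNPK 14 of its 20 genes were lower by 1 or more, beside 3.93% of all genes, with a median of -1.15. All 20 were below control, beside 58.4% of all genes. DLGAP5, an Aurora A substrate on the spindle, went from 203 CPM to 58.5 CPM (-1.78), and CENPE, the kinetochore motor, went from 150.3 CPM to 44.4 CPM (-1.74). In si-PTBP1 18 of the 20 were below control, beside 36.5% of all genes, and none passed the threshold, with a median of -0.28. There were 11 of 20 below control in the si-lncRNA-LBCS-labelled library, near the 51.8% of all genes, with a median of -0.06.

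Partners of TPX2 and Aurora A at the centrosome and spindle pole had a median of -0.73 in si-hnRNPK. Of these 13 genes 2 were lower by 1 or more, beside 3.93% of all genes. These were TACC3, an Aurora A substrate on spindle microtubules, at 30.1 CPM in control and 10.4 CPM in si-hnRNPK (-1.44), and KIF11, the motor that separates spindle poles, at 183 CPM and 79.3 CPM (-1.20).

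Relatives of the Aurora, Polo-like and NEK kinases held genes past the threshold in both directions. In si-hnRNPK 2 of 15 were lower by 1 or more, the Aurora B partners CDCA8 (-1.15) and INCENP (-1.05), beside 3.93% of all genes. Another 2 of the 15 were higher, beside 3.55% of all genes. With median-of-ratios scaling 1 was lower and 2 were higher. PLK2, a Polo-like kinase that acts outside mitosis, was at 116 CPM in control and 488 CPM in si-hnRNPK, a change of 2.06, and at 117 CPM and 120.4 CPM in the libraries labelled si-lncRNA-LBCS and si-PTBP1. PLK2 and PLK1 therefore changed in opposite directions in si-hnRNPK. AURKC, the Aurora kinase of meiosis, was low throughout, with 36 reads in control and 146 in si-hnRNPK (1.22). At 0.587 CPM in control and 2.69 CPM in si-hnRNPK, it entered this comparison only through its level in si-hnRNPK. With a 5 CPM filter 1 gene of this list was higher.

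Of the CDK1 switch, 2 of 13 genes were lower by 1 or more in si-hnRNPK, beside 3.93% of all genes, with a list median of -0.55. CDK1 itself, the kinase of mitotic entry, was at 159 CPM in control and 76.4 CPM in si-hnRNPK (-1.05), and MASTL, which restrains the opposing phosphatase, was at 91.1 CPM and 44.4 CPM (-1.02). Both fell short of the threshold with median-of-ratios scaling, under which 0 genes of this list passed, whereas 4 passed with a pseudocount of 0.1.

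Subunits, E2 enzymes and inhibitors of APC/C had a median of -0.16, and 2 of 20 were lower by 1 or more, beside 3.93% of all genes. BUB1B, a checkpoint protein that holds CDC20 back, changed by -1.04, and FBXO5, an inhibitor of APC/C, by -1.01. The list of MuvB, DREAM and B-MYB partners had a median of -0.20. Of its 12 tested genes 1, the MuvB subunit LIN9, was lower by 1 or more (-1.06), beside the same 3.93%. With median-of-ratios scaling no gene of either list passed.

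Inhibitors of CDKs and p53 targets, which act upstream of this program, had a median of 0.14 in si-hnRNPK. Of 9 genes 1 was lower by 1 or more and 1 higher, beside 3.93% and 3.55% of all genes. CDKN2C, an inhibitor of CDK4 and CDK6, changed by -1.30. BTG2, an antiproliferative p53 target, changed by 1.14, from 67 reads to 196. GADD45A, a stress-induced p53 target, was the single list gene past the threshold in the si-lncRNA-LBCS-labelled library, at 48.5 CPM in control and 20.8 CPM there (-1.19). In si-PTBP1 CDKN1C, which encodes the CDK inhibitor p57, was the single one, at 2.79 CPM in control and 7.35 CPM there (1.14).

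**Figure D5:**
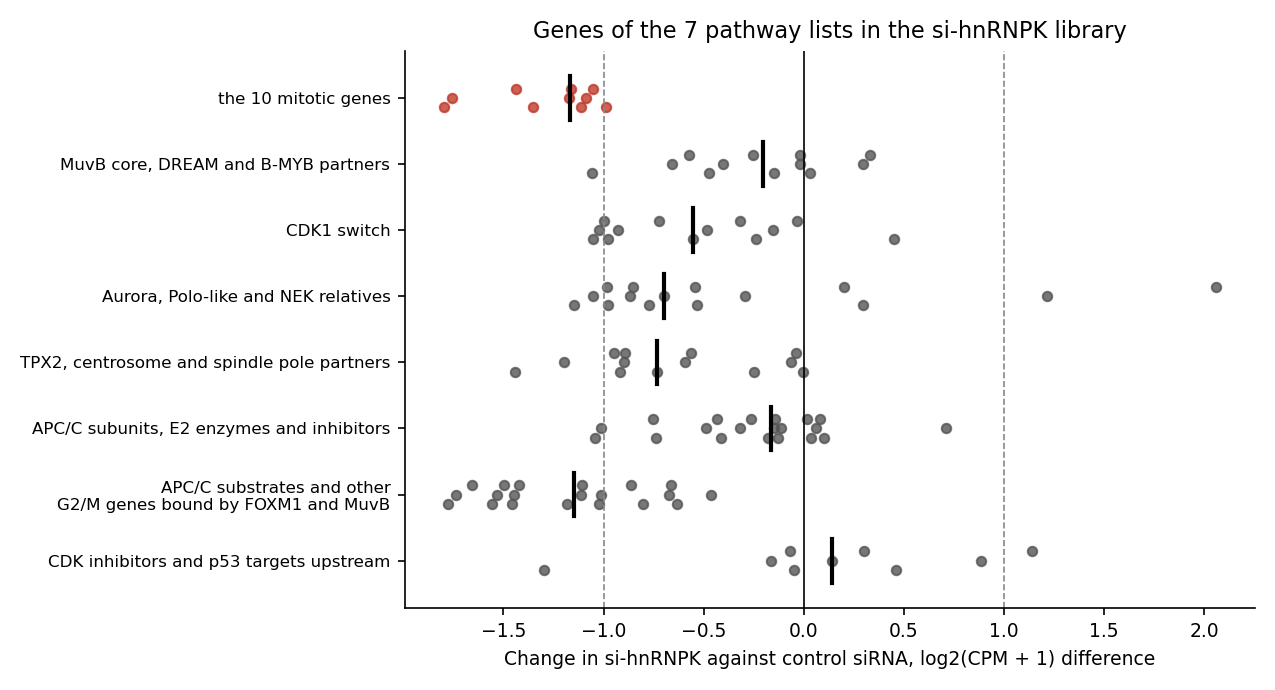
Change in si-hnRNPK against control siRNA on the log2(CPM + 1) scale (x axis) of the 10 genes (red) and of the tested genes of 7 pathway lists (grey), 1 point per gene, with list medians as black bars and thresholds of 1 dashed. The list of APC/C substrates and other G2/M genes has a median of -1.15, near the -1.17 of the 10 genes, and PLK2 stands alone at 2.06.

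The genes whose pattern was most like that of the members were found by distance over the 4 libraries. The measure was the Euclidean distance between log2(CPM + 1) profiles, each centred on its mean, from the members' median profile, over 8757 genes at 10 CPM or more in control. The 5 nearest were ATAD5 (distance 0.058), RRM2 (0.096), RAB15 (0.097), CEP97 (0.098) and MCM10 (0.10). ATAD5 was at 62.4 CPM in control, 24.2 CPM in si-hnRNPK, 51.2 CPM in the si-lncRNA-LBCS-labelled library and 53.3 CPM in si-PTBP1. Among the members TPX2 (0.088) and AURKA (0.094) lay nearest to the median profile, and 1 non-member, ATAD5, was nearer than they were. MYBL2 (0.58) and CDC25B (0.68) lay farthest, and 1399 of the 8757 genes were nearer than CDC25B.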

How the data were processed

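RNA-seq of UM-UC-3 cells gave 1 library per condition and 4 libraries in all, with paired-end reads of 100 bases. Each library has a table of Ensembl identifiers with CPM that the authors deposited. Per the submitters' processing notes the genome build was hg19, and the aligner, counter and annotation are not given in the sources used here. Deposited CPM came out as whole reads (within 0.01 of a read) for 100% of values above the placeholder of genes without reads, which gave each gene's reads.

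Changes were taken on the log2(CPM + 1) scale, which understates those of low genes, over genes listed in both tables and reaching 1 CPM in either. The threshold was 1. Differences between members used the Poisson variance of the reads. Gene symbols matched 23923 to 24349 identifiers per table. Positions are from GENCODE release 29 (GRCh38), matched by identifier, and promoters from RefSeq (GRCh38.p14).

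The members and lists were chosen with earlier results of these data known. Genes named were the 10 members, per list the 2 largest falls and rises past the threshold in si-hnRNPK and any gene past it in the other knockdowns (at most 3), the 5 nearest profiles and the siRNA targets. Marker lists were used to check the cells.

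Alternatives were a pseudocount of 0.1, no filter, a 5 CPM filter, a 1.5-fold threshold, median-of-ratios scaling over 12362 genes, another reference, an exact binomial test of the reads (which compares 2 libraries and not the conditions) and, chosen after seeing the data, exon-union length. Scripts were tested on simulated data. Intervals and tests used scipy 1.17.1 and statsmodels 0.14.6, tables pandas 2.3.3 and numpy 2.4.6, and plots matplotlib 3.10.9, under Python 3.11.15.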

Additional observations from a re-analysis of the deposited data

How the results depend on the processing

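No paired analysis was possible because each condition has 1 library, and for the same reason no replicate could be left out. In si-hnRNPK all 10 genes were lower than the reference under each setting of pseudocount, scaling and reference, and between 7 and 10 passed the threshold. The factor of median-of-ratios scaling was -0.11 for si-hnRNPK and 0.13 for si-PTBP1 relative to control. With it, MYBL2 (-0.95) and CDC25C (-0.98) no longer passed in si-hnRNPK, the members' median was -1.06, the lists held 15 genes lower in si-hnRNPK and 1 in si-PTBP1, the median in si-PTBP1 was -0.43, and 4 members passed against si-PTBP1.

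A 1.5-fold threshold counted 48 list genes lower and 5 higher in si-hnRNPK, 2 lower in the si-lncRNA-LBCS-labelled library, and 5 lower and 7 higher in si-PTBP1. It also counted 1 member lower in the si-lncRNA-LBCS-labelled library (PLK1) and 1 in si-PTBP1 (CDC20). The share of all genes was not counted under this threshold or under any other alternative setting. Counts under these settings, scaling included, therefore cannot be read against a background. A 5 CPM filter left 1 list gene higher in si-hnRNPK, and a pseudocount of 0.1 gave 2 higher in si-PTBP1. With the geometric mean of the other 3 libraries as the reference, which contains si-hnRNPK, the median was 0.27 in the si-lncRNA-LBCS-labelled library and 0.25 in si-PTBP1, and the sign changed for 7 and 6 members. CDC20 (-0.86), UBE2C (-0.84) and CDC25C (-0.98) then missed the threshold in si-hnRNPK. The binomial test changed no count of members. Each member had 1012 or more reads in each library, and the spread between cultures is unknown.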
